A study of Mus musculus with 63 samples.

Results

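Pttg1 and Cyfip2 are 2 protein-coding genes of mouse chromosome 11 whose RNA was far more abundant in hearts of B6 mice than in hearts of the other founder strains of the Diversity Outbred population. They were chosen by their symbols, because earlier results of these same data had placed them among the genes most raised in B6, and they are 2 of the 19220 genes in the count table. The values that set B6 apart from the other strains therefore chose both genes and are given as a description, with no test. RNA from heart was sequenced in 63 libraries, 8 from B6 and, as the strains it is set against, 8 each from 129, AJ, NOD, NZO, PWK and WSB and 7 from Cast. All mice received a high-fat, high-sugar diet (45% fat), and the labels used here give neither age nor sex. Each library carries its own identifier and was taken as 1 mouse. Where that does not hold, the p-values measure only the spread between libraries.

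Pttg1 encodes securin, a small protein that holds the protease separase inactive until the anaphase-promoting complex marks securin for destruction. Separase then cuts the cohesin ring, and sister chromatids part. Securin is best known from dividing cells, while most heart muscle cells of an adult mouse do not divide. Cyfip2 encodes a large subunit of the WAVE regulatory complex, which answers to the GTPase Rac and switches on the Arp2/3 complex to build branched actin. Its close relative Cyfip1 can take the same place in that complex. Cyfip2 is best known from brain and lymphocytes, and both CYFIP proteins also bind FMRP, the product of Fmr1.

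B6 is also the strain whose genome is the reference, GRCm38, and whether reads from the other strains were lost to sequence variants in either gene was not tested. The libraries held 21.8 M to 42.9 M counts each (median 30.4 M), and levels are given in CPM scaled by TMM. All 63 libraries were closer to the mean of their own strain than to that of any other. WSB_1, the first WSB library, stood furthest from its own strain (r = 0.902 across genes, the next lowest being 0.93). Heart muscle genes were abundant in every library: 5 listed cardiomyocyte markers summed to 44100 to 48700 CPM in B6, against 28700 to 60800 CPM elsewhere. None of the 5 passed the test in B6, which 31.8% of all tested genes passed.

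Pttg1 (ENSMUSG00000020415) lies at chr11:43420250-43426251 and Cyfip2 (ENSMUSG00000020340) at chr11:46193850-46312859, both on the minus strand of GRCm38. Their starts are 2.77 Mb apart. The promoter windows of both genes are shown because the genes share their high level in B6. Each holds 250 bases before and 50 after the RefSeq transcription start (GRCm38.p6, minus strand), with CG dinucleotides in capitals. The Pttg1 window is chr11:43425932-43426231 and the Cyfip2 window is chr11:46312309-46312608. Both windows lie inside the gene spans given above. The annotated spans of both genes begin further upstream, outside these windows, and the bases there were not searched.
Pttg1: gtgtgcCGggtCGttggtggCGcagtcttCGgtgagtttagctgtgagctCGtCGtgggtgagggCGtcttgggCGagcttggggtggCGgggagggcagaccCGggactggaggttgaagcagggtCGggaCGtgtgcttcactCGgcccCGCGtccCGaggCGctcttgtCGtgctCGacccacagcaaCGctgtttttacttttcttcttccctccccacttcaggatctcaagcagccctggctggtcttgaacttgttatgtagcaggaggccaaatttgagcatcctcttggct
Cyfip2: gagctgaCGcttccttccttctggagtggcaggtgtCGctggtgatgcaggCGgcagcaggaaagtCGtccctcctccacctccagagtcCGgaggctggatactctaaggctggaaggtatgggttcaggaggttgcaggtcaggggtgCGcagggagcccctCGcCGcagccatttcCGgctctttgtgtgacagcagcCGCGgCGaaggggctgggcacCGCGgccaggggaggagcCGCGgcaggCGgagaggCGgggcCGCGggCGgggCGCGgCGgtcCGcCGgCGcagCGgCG
The Pttg1 window held 20 CG dinucleotides and the Cyfip2 window 29, more than 73.5% and 87.1% of all RefSeq promoter windows of that length. Their G and C content was 60.3% and 70.7%. Both strands were searched for 5 short motifs, none of which overlaps another in its letters: CCAAT, the cell cycle element TTTGAA, the E-box CACGTG, the GC box GGGCGG and the TATA box TATAAA. A single match was found, a GC box in the Cyfip2 window, and 35.7% of the 32851 promoter windows hold one. CCAAT occurs in 37.4% of windows, TTTGAA in 17.9%, CACGTG in 7.2% and TATAAA in 13.6%. These are the reference letters of B6, and the sequences of the other strains were not used here.

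In B6 hearts Pttg1 was a well-expressed gene. Its level ran from 36 to 43.5 CPM over the 8 B6 libraries (median 40.1), and no library of any other strain was above 3.28 CPM. The lowest, median and highest values were 1.44, 1.93 and 2.96 CPM in 129, 1.35, 1.95 and 2.21 CPM in AJ, and 1.13, 1.48 and 2.48 CPM in Cast. They were 2.23, 2.65 and 3.28 CPM in NOD, and 1.44, 2.05 and 2.91 CPM in NZO. In PWK they were 0.572, 1.17 and 1.55 CPM, and in WSB 0.723, 1.12 and 1.6 CPM. The lowest B6 library stood 11 times above the highest library elsewhere, while the other strains largely overlapped one another, apart from NOD, which lay above every library of AJ, PWK and WSB.

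The mean of Pttg1 was 40.3 ± 2.57 CPM in B6 (SD, n = 8), against 1.8 CPM over the means of the other strains, a 22.4-fold difference. In log2 fold change, B6 minus the mean of the other 7 strains, this was 4.53 ± 0.07 (SE). Strain by strain, the B6 level was 15.4 times that of NOD and 35 times that of PWK, with the other strains between these. Per exon length, Pttg1 was at 20.2 RPKM in B6, above 91.8% of 16371 genes. It was at 0.571 to 1.31 RPKM elsewhere, above 27.9% to 40% of genes. In raw counts the B6 libraries held 865 to 1248 reads of Pttg1, and the libraries of other strains held 19 to 117.

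Cyfip2 was more abundant still in B6, and it also differed widely among the other strains. It ran from 225 to 249 CPM over the 8 B6 libraries (median 238). The lowest, median and highest values were 27.6, 31.4 and 42.7 CPM in NOD and 8.98, 33 and 43.2 CPM in WSB. They were 18.8, 20.7 and 26.2 CPM in AJ, 16.5, 20.3 and 22.3 CPM in 129, and 11.8, 13.2 and 18 CPM in NZO. In PWK the gene ran from 1.83 to 3.12 CPM (median 2.32), and in Cast from 0.911 to 2.36 CPM (median 1.46). B6 overlapped no other strain, its lowest library being 5.21 times the highest library elsewhere. PWK and Cast lay below every library of the remaining strains.

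The mean of Cyfip2 was 238 ± 8.81 CPM in B6 (SD, n = 8), against 17.6 CPM over the means of the other strains. The fold difference was 13.5, and the log2 fold change was 4.42 ± 0.08 (SE), an average that hides a wide range. B6 had 7.35 times the level of NOD and 7.58 times that of WSB, but 99.6 times that of PWK and 165 times that of Cast. Per exon length the gene was at 33.5 RPKM in B6, above 95.2% of genes. It was at 4.56 RPKM in NOD, above 67.1% of genes, and at 0.202 RPKM in Cast, above 17.1%. The single low WSB value, 8.98 CPM, belongs to WSB_1, and the other 7 WSB libraries lay between 25.3 and 43.2 CPM.

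**Figure D1:**
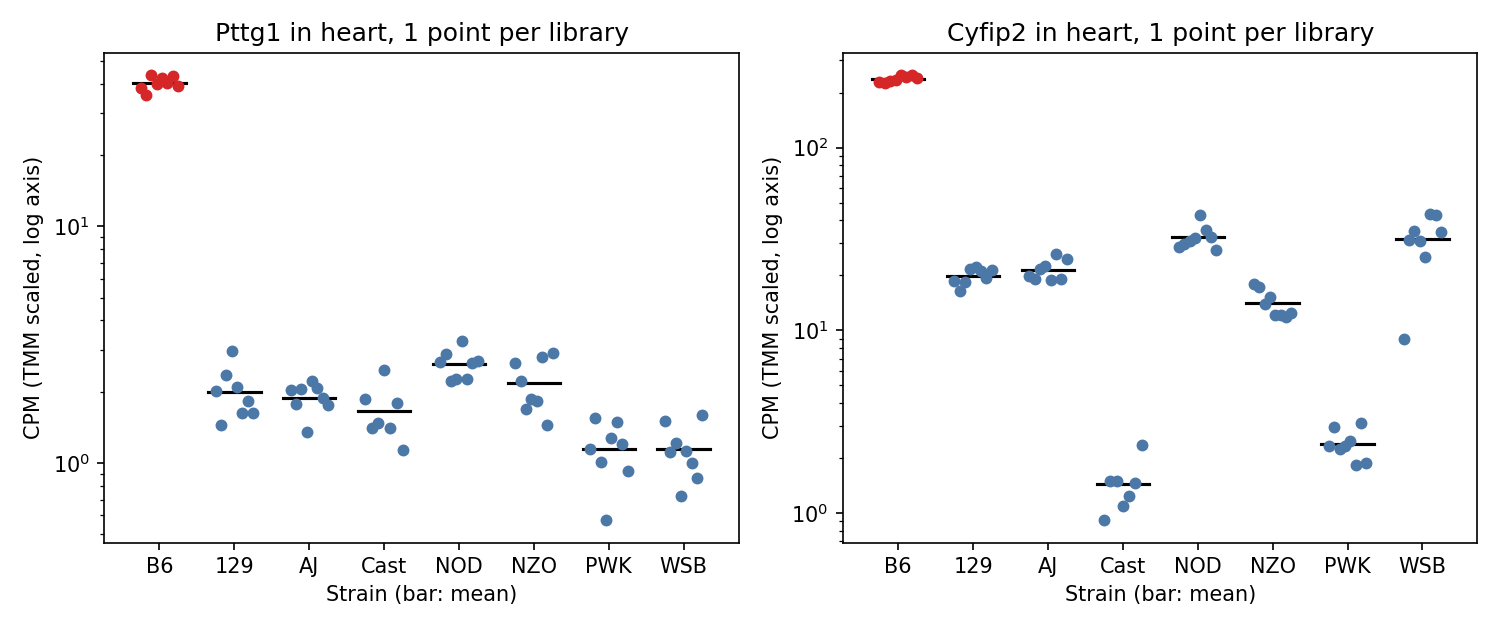
Levels of Pttg1 and Cyfip2 in CPM on a log axis, 1 point per library, by strain with B6 at the left and bars at the strain means. The 8 B6 libraries lie at 36 to 43.5 CPM for Pttg1 and 225 to 249 CPM for Cyfip2, above every other library, and Cast and PWK are lowest for Cyfip2.

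Both genes were steady from mouse to mouse in B6. The coefficient of variation over the B6 libraries was 6.37% for Pttg1, where the median of 1389 genes within 1.25-fold of its level was 6.13%. For Cyfip2 it was 3.7%, where the median of 221 genes of like level was 5.3%. By fold change Pttg1 ranked 2 and Cyfip2 ranked 4 among the tested genes of chromosome 11, and 12 and 15 among all 16425 tested genes. Every B6 library lay above every other library for both genes, a pattern that 0.268% of tested genes showed. Since that contrast chose the genes, nothing is read from these ranks. Neither gene had a near-identical copy among the annotated transcripts, and all 63 values of each were whole numbers.

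Among the 7 other strains both genes differed beyond the spread between mice. Differences among these strains were not the contrast that chose the genes, but their mean is part of it. For Cyfip2 the low levels in Cast and PWK raised that contrast, which was 4.42 with them and 3.38 without. For Pttg1 the means ran from 1.14 ± 0.299 CPM in WSB (SD, n = 8) to 2.62 ± 0.366 CPM in NOD (SD, n = 8), a ratio of 2.29 (edgeR quasi-likelihood F test, adjusted p = 7.24e-11). For Cyfip2 they ran from 1.44 ± 0.463 CPM in Cast (SD, n = 7) to 32.4 ± 4.86 CPM in NOD (SD, n = 8), a ratio of 22.6 (adjusted p = 6.36e-34). Differences of this kind were common, and 89.4% of tested genes passed the same test. In the 21 pairs of these strains Pttg1 passed in 14 (13 with a replicate block or without WSB_1, Cast_1, Cast_5 and Cast_6) and Cyfip2 in 19, while 23.5% of tested genes passed between AJ and NOD and 57% between Cast and NZO. Of the other pairs with Cast, 54% of genes passed against 129, 56.7% against AJ, 56.2% against NOD, 53.9% against PWK and 53.9% against WSB. With PWK 46.1% passed against 129, 51.9% against AJ, 50.3% against NOD, 52.7% against NZO and 51.8% against WSB. The shares were smaller among the remaining strains, with 34.6% between 129 and WSB, 42.7% between AJ and WSB, 37.9% between NOD and WSB and 43.8% between NZO and WSB. They were 28.1% between 129 and AJ, 26.4% between 129 and NOD, 31.8% between 129 and NZO, 28.8% between AJ and NZO and 26.3% between NOD and NZO.

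The order of the Pttg1 means was NOD, NZO, 129, AJ, Cast, PWK and WSB, with few clear steps. NOD and NZO did not pass (NOD minus NZO, 0.27 log2 units, 95% interval -0.01 to 0.55), nor did PWK and WSB (-0.01, interval -0.35 to 0.34). The strains 129, AJ and NZO did not pass in any pair among themselves, and Cast did not pass against 129 or AJ. Cast was above PWK, its next neighbour in the order, by 0.53 ± 0.17 log2 units (SE, adjusted p = 0.0067 in edgeR's quasi-likelihood test). In CPM this step was 1.65 ± 0.444 in Cast (SD, n = 7) and 1.15 ± 0.318 in PWK (SD, n = 8).

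The order of the Cyfip2 means was NOD, WSB, AJ, 129, NZO, PWK and Cast. The pairs that did not pass were NOD with WSB (NOD minus WSB, 0.04, 95% interval -0.24 to 0.32) and 129 with AJ (129 minus AJ, -0.11, interval -0.40 to 0.18). Without WSB_1 the WSB mean was 34.7 ± 6.49 CPM (SD, n = 7), above that of NOD, and the pair still did not pass (-0.10 ± 0.10, adjusted p = 0.462). NZO, at 14.1 ± 2.47 CPM (SD, n = 8), stood above PWK at 2.39 ± 0.458 CPM (SD, n = 8) by 2.56 ± 0.17 log2 units (SE, adjusted p = 2.07e-20), the widest step between neighbours in the order. Cast lay below PWK by a further small step (Cast minus PWK, -0.73 ± 0.22, adjusted p = 0.00332). Cast thus held less Cyfip2 than PWK but more Pttg1.

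Within B6 the relation of Pttg1 to Cyfip2 over mice did not pass the test. Pearson's r of log2 CPM over the 8 B6 libraries was 0.66 (exact permutation test, two-sided, p = 0.0729, adjusted p = 0.292) and Spearman's rho was 0.62 (exact p = 0.115, adjusted p = 0.46). Without the 2 libraries farthest from the median of Pttg1, r was 0.87. In the other 7 strains r ran from -0.76 in Cast (exact p = 0.0563, adjusted p = 0.292) to 0.33 in 129. Without the 2 libraries farthest from the median r was -0.54 in Cast and -0.88 in WSB, and it changed sign in 129 (-0.51), NOD (-0.73, against 0.31) and AJ (0.20, against -0.20), so those values rest on these libraries. Of the 8 strains, 0 passed by Pearson's r, adjusted or not, and Cast alone had an unadjusted p below the threshold by rho (-0.79, exact p = 0.048, adjusted p = 0.384).

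The genes around Pttg1 showed little of its pattern. Slu7, a splicing factor gene on the opposite strand, starts 7.49 kb from the high-coordinate end of Pttg1, where Pttg1, on the minus strand, begins. Slu7 is the nearest neighbour of Pttg1 in the count table. It was at 30.1 ± 1.14 CPM in B6 (SD, n = 8), against 30 CPM over the other strains (log2 fold change 0.01 ± 0.04, adjusted p = 0.921 in edgeR's quasi-likelihood test), and its strain means lay between 27.6 and 33.8 CPM. C1qtnf2, which encodes a secreted C1q and TNF related protein (0.31 ± 0.14, adjusted p = 0.0865), did not pass. Neither did Ccnjl, a cyclin-like gene (0.11 ± 0.15), Pwwp2a, which encodes a chromatin protein (-0.01 ± 0.07), or Adra1b, an alpha-1 adrenergic receptor gene (0.22 ± 0.14).

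Of the 12 tested genes nearest to Pttg1, 6 on each side, 1 was higher in B6 and 4 were lower, where 17.5% of all tested genes were higher and 14.3% lower (31.8% in either direction). Ttc1, a tetratricopeptide repeat gene, was at 21.9 ± 1.04 CPM in B6 (SD, n = 8), against 27.3 CPM over the others (-0.32 ± 0.04, adjusted p = 1.11e-10). It ran opposite to both genes over the 8 strain means of log2 CPM (r = -0.83 with Pttg1 and -0.95 with Cyfip2). These means share libraries and depth and include B6, whose level chose both genes. The neuronal GABA-A receptor subunit gene Gabrb2 (-2.66 ± 0.54, adjusted p = 4.29e-05) was lower in B6 and scarce in heart. It was at 0.0488 CPM in B6, with 0 to 3 reads per library, and Cast was highest at 2.39 CPM, while NZO and PWK, at 0.0595 and 0.064 CPM, were as scarce as B6. Nudcd2 was lower as well (-0.21 ± 0.07, adjusted p = 0.0129), and the cell cycle genes Ccng1 (0.19 ± 0.11) and Hmmr (0.12 ± 0.27) did not pass.

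Beside Cyfip2, some low-level transcripts were higher in B6 together with it, and none of the better expressed protein-coding neighbours among the nearest 12 was. Fndc9, a fibronectin type III domain gene, lies inside the span of Cyfip2 on the opposite strand and shares no exonic base with it. It ran from 0.48 to 1.54 CPM over the 8 B6 libraries (median 1.32), and the strain means elsewhere lay between 0.0195 CPM in PWK and 0.235 CPM in WSB. The means were 1.23 ± 0.347 CPM in B6 (SD, n = 8) and 0.122 CPM over the others (3.70 ± 0.25, adjusted p = 2.2e-23), and the highest library elsewhere, in NOD at 0.674 CPM, reached into the B6 range. Over 8 strain means of log2 CPM the r of Fndc9 was 0.94 with Cyfip2 and 0.86 with Pttg1. These means include B6, whose high level chose both members, and no r of strain means without B6 was computed. Whether counting used strand is not given in the sources used here, so reads of Fndc9 and reads from introns of Cyfip2 cannot be told apart.

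An antisense RNA, Gm12167, starts 29.4 kb beyond the high-coordinate end of Cyfip2, where Cyfip2, on the minus strand, begins. Gm12167 was named here after its values were seen. It was at 3.88 ± 0.462 CPM in B6 (SD, n = 8), with every B6 library above every other. It stood at 1.07 ± 0.286 CPM in NOD and 0.562 ± 0.218 CPM in WSB (SD, n = 8 each). It had 0 reads in all libraries of Cast and of PWK, the strains lowest for Cyfip2, so its fitted log2 fold change of 5.27 ± 0.16 (adjusted p = 9.1e-34) depends on the prior count and was 3.41 without those strains. Over the 8 strain means of log2 CPM, B6 included, its r was 0.96 with Cyfip2 and 0.75 with Pttg1.

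Most other close neighbours of Cyfip2 did not pass the test. Adam19, a metalloprotease gene, was at 98.8 CPM in B6 and 96.2 CPM over the others (0.09 ± 0.15, adjusted p = 0.713), and the Mediator subunit gene Med7 was at 9.42 and 9.21 CPM (0.04 ± 0.05, adjusted p = 0.662). Lsm11 (0.16 ± 0.08), Nipal4 (-0.25 ± 0.50) and Havcr2 (0.02 ± 0.18) did not pass, and Thg1l, which encodes a transfer RNA guanylyltransferase, was slightly lower (-0.24 ± 0.08, adjusted p = 0.0125). Of the 12 nearest tested genes 4 were higher and 1 was lower, where 17.5% of all tested genes were higher and 14.3% lower. Besides Fndc9 and Gm12167 the higher ones were 2 copies of other genes, Gm12166 (a copy of Sft2d1) and Gm12174 (a copy of Rpl7), whose own levels are uncertain. Neither set B6 apart. Gm12174 was at 84.5 CPM in B6, 90.5 in WSB and 0.461 in PWK. Gm12166 ran from 0.112 to 0.82 CPM in B6 (mean 0.408, median 0.364) and from 0.108 to 3.23 CPM in WSB (mean 0.802, median 0.265). The highest WSB library thus raised that mean above B6, while the WSB median lay below that of B6.

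**Figure D2:**
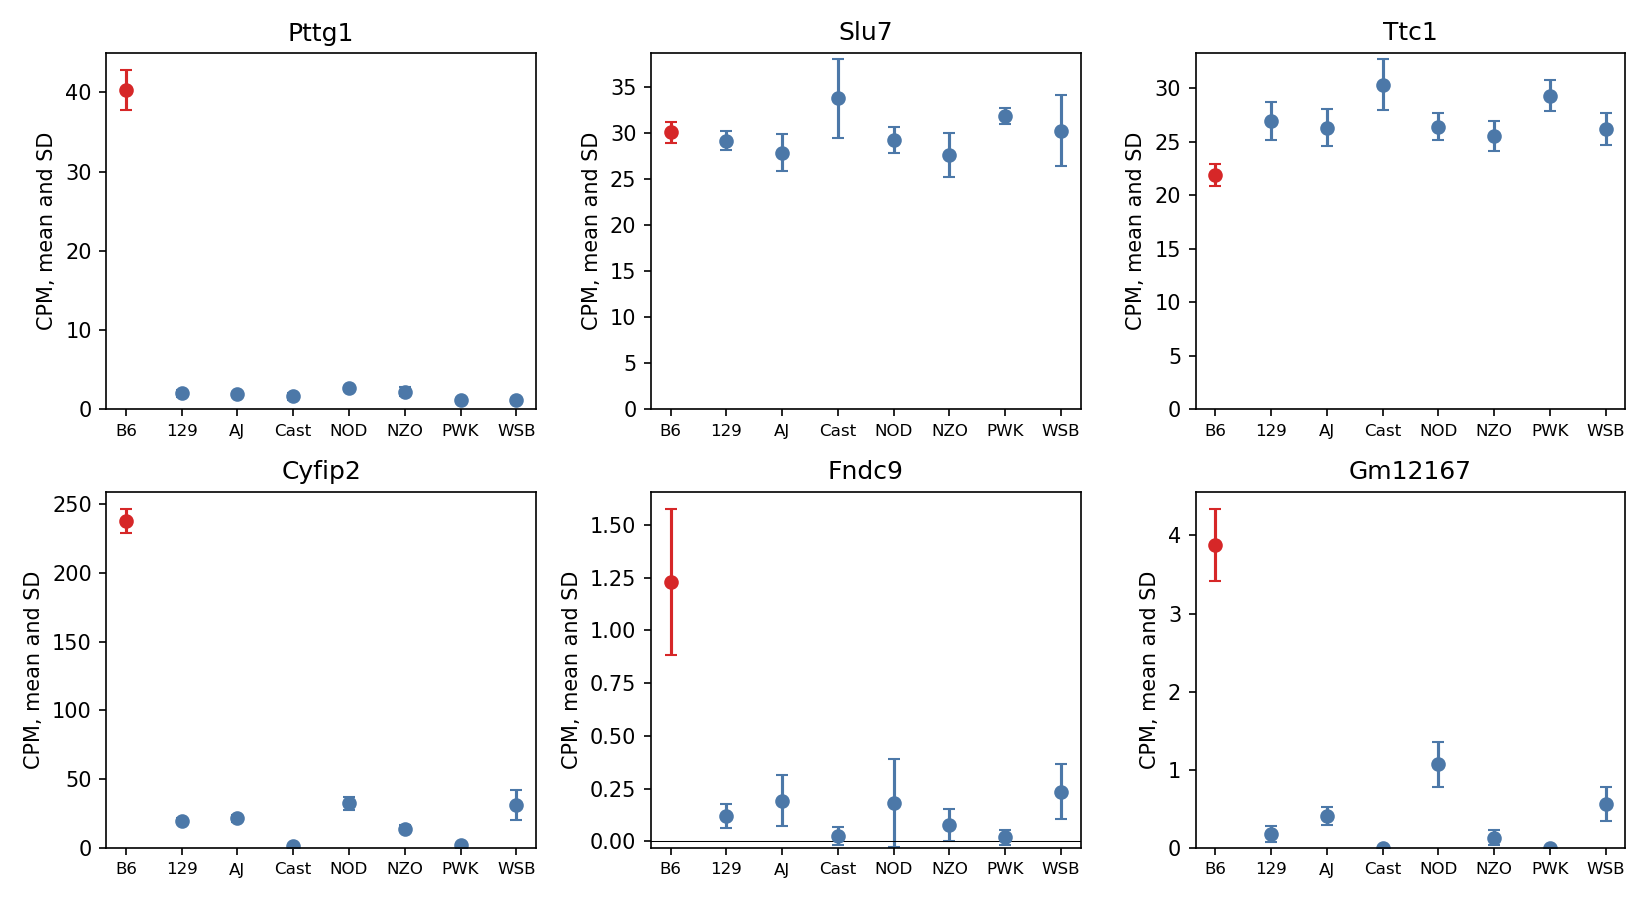
Mean and SD of CPM by strain, B6 at the left, for Pttg1 with its neighbours Slu7 and Ttc1 (top) and for Cyfip2 with Fndc9 and Gm12167 (bottom). Slu7 is at 30.1 CPM in B6 and between 27.6 and 33.8 CPM elsewhere, while Fndc9 and Gm12167 are highest in B6 at 1.23 and 3.88 CPM.

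Within 5 Mb of either gene 76 other genes were tested, of which 26 were higher in B6, 6 were lower and 44 did not pass. That is 34.2% higher, against 17.5% of all tested genes and 17% of the 1306 other tested genes of chromosome 11. At least 2-fold higher were 15 genes (19.7%) and at least 2-fold lower 2, where 3.68% and 2.28% of all tested genes were. The median log2 fold change was 0.09 in the window and 0 over all tested genes. Of the 26 higher genes, 13 lay in a stretch from 48.8 to 49.2 Mb, marked off after its values were seen, which holds Irgm1, Tgtp1, Tgtp2 and other interferon-induced GTPase genes. Many of these 13 share sequence with other genes or hold values that are not whole numbers. Some are near-identical to each other, so the counts and shares above do not come from independent genes. Without that stretch 13 of 58 genes were higher (22.4%) and 6 were lower. Between the 2 genes themselves 17 were tested, and 3 of these were higher and 2 lower. At least 2-fold higher genes in the stretch included Trim7 (1.22 ± 0.10), at 23.2 CPM in B6 but 24.6 in AJ and 21.9 in NOD, and Tgtp2 (2.75 ± 0.25, and 1.65 without Cast and PWK). Tgtp2, Tgtp1 (2.01 ± 0.26), Psme2b (2.71 ± 0.30), Trim7 and, further on, Olfr1393 (1.21 ± 0.37) share sequence with other genes and are uncertain. Psme2b (adjusted p = 0.312) and Olfr1393 (0.28) did not pass without Cast and PWK. The scarce olfactory receptor gene Olfr56 (1.47 ± 0.40) had no copy. It held 2 to 12 reads per B6 library, and no result was obtained for it without Cast and PWK. By mean, Tgtp1 was at 11.8 CPM in NZO and 10.3 in B6, and Psme2b at 2.23 in WSB and 1.81 in B6. Olfr1393 and Olfr56 were at 0.343 and 0.327 CPM in AJ, and 0.288 and 0.258 in B6. Tgtp2 was highest in B6, as were the medians of Tgtp1 and Olfr56.

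**Figure D3:**
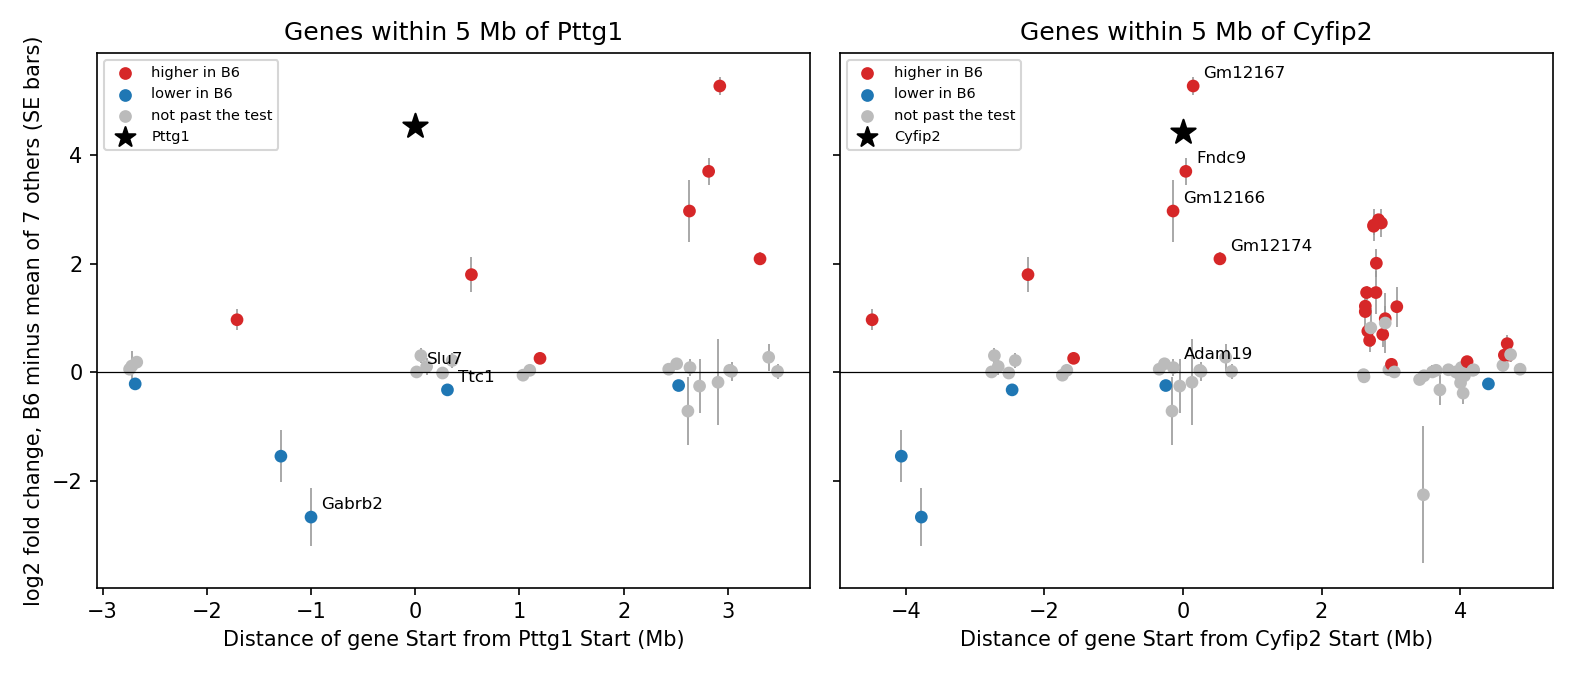
Log2 fold change in B6 minus the mean of the other 7 strains, with SE bars, for every tested gene within 5 Mb, by the distance of its start from that of Pttg1 (left) or Cyfip2 (right), which are drawn as stars at 4.53 and 4.42. Genes higher in B6 are red, lower ones blue and those not past the test grey, and the red column to the right of Cyfip2 is the stretch where 13 of 18 genes were higher.

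Cyfip2 was the more abundant of the Cyfip genes in B6, and Cyfip1 was far the more abundant in PWK and Cast. Cyfip1 was at 51.2 CPM in B6, against 50.2 CPM over the other strains (0.03 ± 0.04, adjusted p = 0.55), and its level per length lay between 3.81 and 4.83 RPKM in every strain. Cyfip2 made up 88.7 ± 0.431% of the summed RPKM of both genes in B6 (SD, n = 8; 87.9% to 89.3%). The share was 51.9 ± 11% in WSB, 51.8 ± 4.29% in NOD, 42.9 ± 2.48% in AJ, 40.5 ± 2.92% in 129 and 32 ± 3.08% in NZO (SD, n = 8 each). In PWK it was 6.5 ± 1.13% (SD, n = 8) and in Cast 4.51 ± 1.25% (SD, n = 7). The sum of both was 37.8 ± 1.39 RPKM in B6 (SD, n = 8), against strain means of 4.46 to 8.77 RPKM elsewhere. These shares and sums depend on the length by which each gene is divided, here the union of its exons. In CPM, Cyfip1 stood above Cyfip2 in NOD (50.3 and 32.4 CPM) and in WSB (45.5 and 31.5 CPM), so the near-equal shares there rest on that length.

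For shared sequence, the longest annotated transcript of each of these genes was compared, and their other transcripts were not. The longest exact run shared by these transcripts of Cyfip2 (6659 bases) and Cyfip1 (6440 bases, chromosome 7) was 24 bases. The run is shown in capitals with 20 bases on either side, since it marks how far a read could match both exactly.
Cyfip2: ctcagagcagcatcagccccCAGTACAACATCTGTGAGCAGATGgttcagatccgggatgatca
Cyfip1: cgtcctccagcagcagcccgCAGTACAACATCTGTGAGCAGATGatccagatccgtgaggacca

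**Figure D4:**
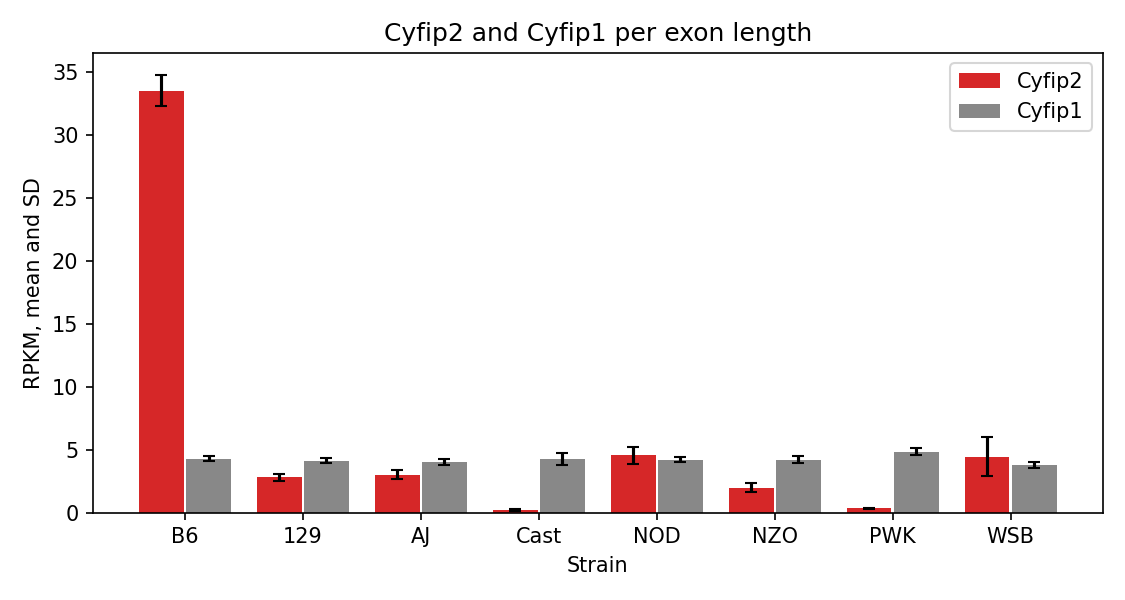
Mean and SD of RPKM of Cyfip2 (red) and Cyfip1 (grey) by strain, B6 at the left, on an axis from 0. Cyfip2 is at 33.5 RPKM in B6, 4.56 RPKM or less elsewhere and 0.202 RPKM in Cast, while Cyfip1 stays between 3.81 and 4.83 RPKM.

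The other genes of the WAVE pathway showed no rise of that size. Of 27 listed and tested genes of the WAVE complex, Rac, Arp2/3 and FMRP, 4 were higher in B6, 3 were lower and 20 did not pass (25.9% called, against 31.8% of all tested genes), with a median log2 fold change of -0.03. The higher ones were the WAVE gene Wasf3 (1.42 CPM in B6 and 1.03 CPM elsewhere, 0.71 ± 0.14, adjusted p = 4.07e-05), Actr3b (0.27 ± 0.10), Fxr2 (0.22 ± 0.05) and Brk1 (0.15 ± 0.04). The lower ones were Abi2, a WAVE complex subunit (-0.23 ± 0.05), and the Arp2/3 subunit genes Arpc1a (-0.18 ± 0.05) and Arpc1b (-0.31 ± 0.08), of which Arpc1b has a near-identical copy. Nckap1, the subunit that pairs with CYFIP proteins, did not pass (0.04 ± 0.05, adjusted p = 0.56), and Wasf2 did not pass (-0.10 ± 0.04, adjusted p = 0.0668). When Cast and PWK were left out, Wasf3 (0.31, adjusted p = 0.0773) and Actr3b (0.16, adjusted p = 0.159) no longer passed, and of the 4 higher genes Fxr2 alone still did. Brk1 was at 32.2 CPM in B6, but at 32.6 CPM in AJ, 32.7 in NOD and 33.9 in NZO. Wasf3 was not highest in B6 either. It was at 2.09 CPM in NOD and 1.5 in NZO, above B6, while the remaining strains lay below B6, with Cast lowest at 0.241 CPM.

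Among 40 tested genes of securin's pathway (separase, the anaphase-promoting complex, cohesin and the spindle checkpoint) 7 were higher in B6, 2 were lower and 31 did not pass (22.5% called, against 31.8% of all tested genes, and 17.5% higher in both), with a median log2 fold change of 0.04. Espl1, which encodes separase, the target of securin, was at 1.07 ± 0.346 CPM in B6 (SD, n = 8), against 0.917 CPM elsewhere, and did not pass (0.32 ± 0.19, adjusted p = 0.199). Sgol2a, a shugoshin gene whose product guards cohesin at centromeres, was higher at 15 CPM in B6, against 9.5 CPM (1.52 ± 0.08, adjusted p = 2.08e-25), but without Cast and PWK its log2 fold change was 0.20 (adjusted p = 0.0103). The checkpoint kinase gene Bub1b was higher as well (1.25 and 0.793 CPM, 0.84 ± 0.26, adjusted p = 0.00774). The other higher genes were Anapc4, Mad1l1, Rad21, Stag1 and Smc1a, with values between 0.10 and 0.19. Anapc7 (-0.25 ± 0.05, adjusted p = 3.19e-05) and Anapc10 (-0.19 ± 0.08, adjusted p = 0.0411) were lower, and Anapc10 has near-identical copies.

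Securin is made in dividing cells, so genes of cycling cells were counted beside it. Of 32 listed and tested genes 4 were higher in B6, 0 were lower and 28 did not pass (12.5% called, against 31.8% of all tested genes), with a median log2 fold change of 0.01. At an unadjusted p the count of lower genes was 1, and DESeq2 called 1 lower. The 4 were Nusap1 (0.47 ± 0.15, adjusted p = 0.0125), Tk1 (0.47 ± 0.10, with a near-identical copy), Mcm2 (0.30 ± 0.12, adjusted p = 0.0436) and Mcm6 (0.24 ± 0.09). The proliferation marker Mki67 was at 8.92 CPM in B6, against 7.36 CPM (0.40 ± 0.23, adjusted p = 0.2). The call of Mcm2 was lost without Cast and PWK (adjusted p = 0.0547) and without WSB_1, Cast_1, Cast_5 and Cast_6 (0.0555), and that of Nusap1 without Cast and PWK (0.0922).

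**Figure D5:**
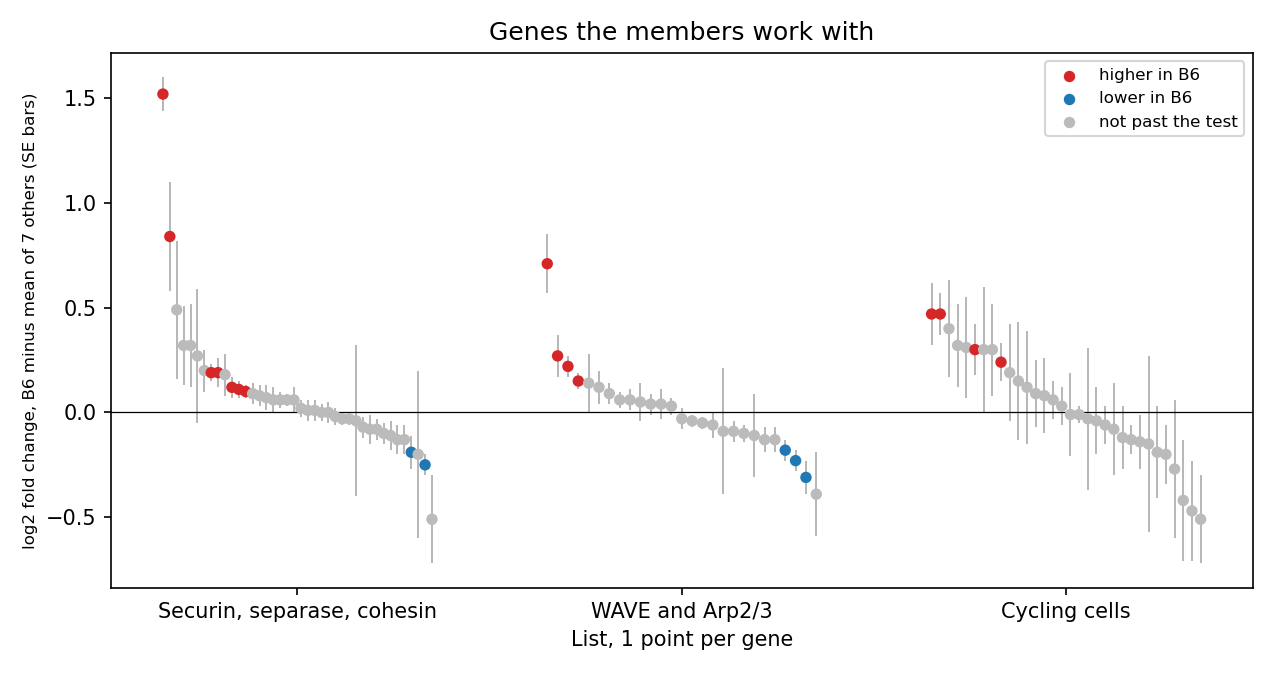
Log2 fold change in B6 minus the mean of the other 7 strains, with SE bars, for 40 genes of securin's pathway, 27 genes of the WAVE and Arp2/3 pathway and 32 genes of cycling cells, 1 point per gene (red, higher in B6; blue, lower; grey, not past the test). The list medians are 0.04, -0.03 and 0.01, and the highest point is Sgol2a at 1.52, which was 0.20 without Cast and PWK.

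Markers of other cell types were examined because both genes are known from cells other than heart muscle. Summed T cell markers were at 1.57 to 2.82 CPM in B6, against 0.196 to 135 CPM elsewhere, and 0 of 6 tested passed. In edgeR's test at an unadjusted p, 0 of these 6 passed. Summed B cell markers were at 1.19 to 4.91 CPM in B6, against 0.363 to 44.6 CPM. Summed markers of cycling cells (Mki67, Top2a, Ccnb1 and Cdk1) were at 10.9 to 19 CPM in B6, against 0.916 to 75.3 CPM. Summed nerve and Schwann cell markers were at 10.6 to 16.3 CPM in B6, against 5.57 to 25.7 CPM, and 2 of 6, Uchl1 (0.80 ± 0.12) and Tubb3 (1.40 ± 0.32), were higher. Macrophage (1 of 4 higher), endothelial (2 of 4) and fibroblast (0 of 4) sums in B6 also lay within the range of the other strains. No listed marker was at 0 in all B6 libraries. Of all tested genes 17.5% were higher in B6 and 31.8% passed in either direction. In whole tissue, more cells of a type and more RNA per cell cannot be told apart.

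The genes most like each member, with gene models, pseudogenes and clones known only by systematic symbols left out, were sought over all libraries by Pearson's r of log2 CPM, as a description in which the libraries share depth and strain. The 63 libraries include B6, whose high level chose both members, and r over them carries that contrast. For Pttg1 over 63 libraries the genes most like it were Rab6b (0.92), Pydc4 (0.90), Trim12a (0.86), Alox5 (0.84) and Mccc1 (0.82). These are on chromosomes 9, 1, 7, 6 and 3. Cyfip2 ranked 29 for Pttg1 (r = 0.72), and Pttg1 ranked 208 for Cyfip2. Over the 55 libraries without B6 that r was 0.31, and Cyfip2 ranked 2295. For Cyfip2 the most alike named genes were Cntn5 (0.92), Srp54b (0.89), Aga (0.88), Fkbp10 (0.86) and Rcn2 (0.86). Without B6 the genes most like Pttg1 were Slfn2 (0.77), Fxyd6 (0.74) and Fam173a (0.74), and the named genes most like Cyfip2 were Dnaaf3 (0.95), Ifit1bl1 (0.95) and Sgol2a (0.94).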

How the data were processed

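Per the labels' protocols, RNA came from frozen, pulverised heart tissue, ERCC spike-in RNA was added and polyA RNA was isolated for library construction. The authors deposited gene-level estimated counts, also called expected counts, without normalisation. Per the submitters' processing notes the build is GRCm38 and DESeq2 was used. No source used here names the aligner, the counter or its use of strand. The table lists 19220 genes, each above 0 in at least 32 libraries, and 18.4% of the values differ from a whole number by more than 1e-06. The authors' variance-stabilised table holds log2 values, used for an alternative test. Positions of genes come from the deposited annotation.

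Counts were rounded and fitted in R 4.3.3 with edgeR 4.0.16 (quasi-likelihood, robust), with strain as the factor (55 residual degrees of freedom). After filterByExpr (minimum count 10) 16425 genes were tested and 2795 were not. TMM factors ran from 0.828 to 1.16. B6 was compared with the unweighted mean of the other 7 strains on the log2 scale, while a single CPM given for those 7 averages their strain means. Adjusted p-values are Benjamini-Hochberg over all tested genes, with a threshold of 0.05. In the pairs of strains they are adjusted over genes within each pair. RPKM values divide CPM by the union of exons in GENCODE M21, which held 19139 of the gene IDs. Log2 CPM for correlations used a prior count of 2. Near-identical copies were sought with minimap2 2.31 (identity of 95% or more across 50% or more of the shorter transcript). The scripts were tested on simulated data. Promoter sequences are from RefSeq (GRCm38.p6).

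The members, lists, windows and alternatives were chosen with earlier results of these data known. Genes were named by rule: the 6 nearest tested genes on either side of each member, called genes within 5 Mb at least 2-fold apart, up to 3 called genes per direction in each list, and Espl1, Cyfip1, Nckap1, Wasf2 and Mki67. Symbols of the form Gm and digits or ending in Rik were counted only. Gm12166, Gm12167, Gm12174, Irgm1 and the list members beyond these were named after their values were seen. Some genes that the rule names are left out of the text. The most alike genes are, among symbols the rule allows, the 5 with the highest r over all libraries and the 3 without B6. Alternatives were DESeq2 1.42.0 (size factors, test), limma 3.58.1 on the deposited log2 values, no filter, a replicate block, other windows, and leaving out libraries or strains.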

Additional observations from a re-analysis of the deposited data

Results flagged for a closer look

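Cyfip2 in Cast_8, at 2.36 CPM, lay apart from the other 6 Cast libraries, of which the highest was at 1.5 CPM. Its gap to that library was 0.592 of the whole range of the 7 Cast libraries, above Dixon's 95% critical value of 0.568. This was 1 of 16 groups examined (both genes in 8 strains), and chance marks about 1 in 20 groups. Without Cast_8 the Cast mean was 1.28 ± 0.245 CPM (SD, n = 6), against 1.44 ± 0.463 CPM with it (SD, n = 7), and Cast remained the strain with the lowest mean.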

How the results depend on the processing

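Of 45 named genes compared, no gene past the test changed direction under the alternatives. Among the named genes that did not pass, Ccng1 (-0.07 without Cast and PWK), Pwwp2a, Havcr2 and Nckap1 changed sign. Direction was not compared for genes beyond these and the members. With Cast and PWK left out, Pttg1 passed in 6 and Cyfip2 in 8 of the 10 remaining pairs of strains, since fewer pairs were compared. Under that setting 5 of 40 genes of securin's pathway were lower and 1 of 27 on the WAVE list was higher. Of 32 genes of cycling cells 2 were higher and 1 lower. Among all tested genes 15.1% were higher there and 29.5% passed in either direction. With WSB_1, Cast_1, Cast_5 and Cast_6 left out, 5 of 41 genes of securin's pathway, 5 of 27 on the WAVE list and 2 of 32 of cycling cells were lower. In that setting 40.3% of all tested genes passed. For cycling cells the DESeq2 test, limma on the deposited values and the replicate block each called 1 of 32 genes lower, against 0. The shares of all tested genes that passed in these were 33.1%, 32.7% and 31.6%. A window of 1 Mb held 5 higher and 2 lower among 22 neighbours, one of 2 Mb 7 higher and 4 lower among 28, and one of 10 Mb 39 higher and 12 lower among 143, where 17.5% of all tested genes were higher and 14.3% lower. The cause of the shifts other than those in pairs and windows was not tested.

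The log2 fold change of Pttg1 in B6 stayed at 4.40 to 4.57 on counts, and was 2.84 on the deposited variance-stabilised scale, which compresses low values. That of Cyfip2 was 3.38 without Cast and PWK, against 4.42 with them, and 3.70 on the deposited scale. Of 313 comparisons over 45 named genes, 302 kept their call, 8 no longer passed and 3 newly passed. Psme2b (0.27, adjusted p = 0.312) and Olfr1393 (0.52, adjusted p = 0.28) no longer passed without Cast and PWK.

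Library numbers were not taken to pair mice across strains. The median correlation of deviations was 0.049 over 199 pairs with the same number, 40 of them over 0.1, against -0.01 over 1537 pairs with different numbers, 168 of them over 0.1. With the number as a replicate block 2857 genes were higher and 2332 lower in B6, against 2871 and 2354. Among the other strains the widest pair for Pttg1 was 1.20 (adjusted p = 1.21e-09) and for Cyfip2 4.49 (adjusted p = 7.94e-30), and Pttg1 passed in 13 pairs, against 14. The block moved C1qtnf2 past the threshold (0.32, adjusted p = 0.025) and Mcm2 out of it (0.28, adjusted p = 0.0629). No alternative that sums near-identical copies was run for the members, since none was found. In strains other than B6, Pttg1 rested on 19 to 117 counts per library, which limits its order among them.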

Other observations

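The deposited table lists the B6 libraries in 2 separate runs of columns, and the labels used here give no batch. B6_5 to B6_8 had 241 to 249 CPM of Cyfip2 and B6_1 to B6_4 had 225 to 235 CPM, with no overlap, while Pttg1 overlapped (39.1 to 43.2 CPM and 36 to 43.5 CPM). Genes of the mitochondrial genome took 30.2% to 31.1% of counts in B6_5 to B6_8 and 27.5% to 28.5% in B6_1 to B6_4, and the TMM factors were 0.889 to 0.915 and 0.941 to 0.976. Without the TMM factors Cyfip2 was at 218 to 221 and 216 to 229 CPM, which overlap. The NZO libraries also stand in 2 runs, with Cyfip2 at 11.8 to 12.5 CPM in NZO_5 to NZO_8 and 13.9 to 18 CPM in NZO_1 to NZO_4. Without the TMM factors these were 11.1 to 13.5 and 13 to 17.5 CPM, which overlap. Of the other strains in more than 1 run, 129_8 and 129_9 (19.3 to 21.5 CPM) and WSB_9 (34.6 CPM) lay within the range of the rest of their strain, and PWK_9 (1.88 CPM) lay within that of PWK_6 and PWK_7 (1.83 to 3.12 CPM) and below PWK_1 to PWK_5 (2.23 to 2.95 CPM). With 4 libraries in a run, the relation of Pttg1 to Cyfip2 was not computed within runs.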
